A study of Mus musculus with 24 samples.

Results

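The effect of losing PU.1 was compared between B cells activated with LPS + IL-4 and B cells activated with CD40L + IL-4. For each gene the log2 ratio of PU.1 cKO to control was taken in each culture, and the value in CD40L + IL-4 was subtracted from the value in LPS + IL-4. A positive difference therefore marks a gene whose ratio was higher with LPS, either because it fell less or because it rose more, and a negative difference marks the reverse. The comparison used 8 of the 24 libraries of the series, 2 of each genotype in each culture, and 13075 of the 27179 genes counted had enough counts to be tested.

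RNA came from lymph node B cells of C57BL/6 mice aged 6 to 20 weeks, sorted as CD3- B220+ CD138- after 48 h in culture. One culture held CD40L at 50 ng/ml, the other LPS at 20 µg/ml, and each held IL-4 at 10 ng/ml. Control mice were Cd23T/+ and PU.1 cKO mice were Spi1fl/fl Cd23T/+, so both carried the Cd23-Cre transgene, which acts from the transitional stage of B cell development onwards. The other activated libraries, used for comparison, came from SpiB KO mice (Spi1fl/fl Cd23+/+ Spib-/-, without Cre) and PU.1 SpiB DKO mice (Spi1fl/fl Cd23T/+ Spib-/-), 2 of each in each culture. The labels attach a single extraction protocol, worded for CD40L + IL-4, to every sample, and the LPS cultures were identified from the sample titles. The study's methods call the 2 libraries of a group biological replicates and do not say whether each came from its own mouse, so the p-values measure the spread between these libraries. The cultures were also counted in separate tables, and a difference in level between the cultures cannot be told apart from a difference between those tables, but each PU.1 effect was formed within a single culture and table.

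PU.1 (encoded by Spi1) and SpiB (Spib) are ETS family transcription factors that bind DNA sequences centred on GGAA and are expressed together in B cells. CD40L engages CD40, a receptor of the TNF receptor family, and mimics the help that T cells give to B cells. LPS engages TLR4 and acts without T cells, and TLR4 signals through an adaptor that leads to NF-kB and through another that leads to interferon regulatory factors and type I interferon. IL-4, present in both cultures, acts through STAT6, and both stimuli drive B cells to divide, to switch their immunoglobulin class and to become plasma cells.

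Total counts of the 8 libraries ranged from 9598674 to 73658850. PU.1 cKO replicate 2 with CD40L, at 61640683, stood apart from the other CD40L libraries of these genotypes, which held 9598674 to 11334956. Levels are given as CPM (counts scaled to library size, normalized by edgeR's TMM method), and log2 CPM of the replicate libraries of control and PU.1 cKO had correlations of 0.987 to 0.995 over all genes tested. The B cell markers summed to 10461 to 12190 CPM in control and 8304 to 9100 in PU.1 cKO with LPS, and to 21628 to 28351 and 17065 to 17280 with CD40L. Cd74 made up most of each of these sums, at 4655 to 7510 CPM with LPS and 10565 to 19798 with CD40L. Of other cell types, the summed T cell list was higher in PU.1 cKO than in control in both cultures (54.9 to 63.4 against 144 to 148 CPM with LPS, 123 to 139 against 199.97 to 200.2 with CD40L). Thy1, Cd2, Zap70 and Cd28 made up most of these sums, whereas Cd3d, Cd3e, Cd3g and Cd4 stood at 0 to 0.358 CPM in every one of the 8 libraries. The myeloid list was lower in PU.1 cKO (13.9 to 19.9 against 4.76 to 7.93 CPM with LPS, 47.2 to 62.7 against 9.63 to 11.9 with CD40L), with Lyz2, Mpo, S100a8 and S100a9 at 0 throughout. The NK cell list summed to 1.35 to 1.43 CPM in control and 8.31 to 13.0 in PU.1 cKO with LPS, and to 8.32 to 10.5 and 21.1 to 22.1 with CD40L, with Ncr1 at 0 throughout. The part of these cells in the results was not tested, and in bulk RNA fewer cells of a type cannot be told apart from less RNA per cell.

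Spi1 (Entrez ID 20375, chr2:91082374-91115759, GRCm38), the targeted gene, fell in both cultures. With LPS its level was 70.4 and 60.5 CPM in the control libraries and 43.7 and 40.6 in PU.1 cKO, a log2 change of -0.63 (SE 0.16, edgeR adjusted p = 0.0301). With CD40L it was 86.5 and 111 CPM in control and 48.1 and 36.0 in PU.1 cKO, a change of -1.25 (SE 0.17, edgeR adjusted p = 0.000211). The groups did not overlap in either culture. The difference between the changes, 0.61 (SE 0.24, 95% interval 0.11 to 1.12, edgeR adjusted p = 0.278), did not pass after adjustment over all genes. The fitted fall of Spi1 was smaller with LPS, and its part in the differences of other genes was not tested. Counts are per whole gene, reads of the floxed exon are included among them without distinction, and the residual level does not measure how many cells kept an intact gene. Spib (Entrez ID 272382, chr7:44525995-44532087), the other family member, changed by -0.26 (SE 0.21) with LPS and 0.01 (SE 0.21) with CD40L, and neither value passed. Mybpc3, which lies next to Spi1 on chromosome 2, stood at 0 to 0.268 CPM in the 4 control libraries and at 287 to 353 CPM in the 4 PU.1 cKO libraries. On chromosome 17, H2-Ea-ps, annotated as a pseudogene of the class II region in the C57BL/6 reference, stood at 0 to 0.645 CPM in the 4 control libraries, 1127 to 2839 in the 4 PU.1 cKO libraries and 0.0237 to 3.37 in the 8 libraries without SpiB. A difference in the H2 haplotype of the mice was not tested, and for genes of that region it cannot be told apart from PU.1 loss. Of the 36 genes tested within 2 Mb of Spi1, 0 were called for the difference, where 2.92% of all genes tested were.

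A gene was called when its Benjamini-Hochberg adjusted p over all genes tested was under 0.15 and its fold over 1.5. PU.1 loss changed 1146 genes with LPS (8.76% of those tested), of which 729 were higher in PU.1 cKO (5.58%) and 417 lower (3.19%). With CD40L it changed 2188 genes (16.7%), 996 higher (7.62%) and 1192 lower (9.12%). The difference itself was called for 382 genes (2.92%), with 259 higher (1.98%) and 123 lower (0.941%), and 1690 genes had an unadjusted p under 0.05. The median size of the log2 change over all genes was 0.16 with LPS and 0.28 with CD40L. Across genes, which are not independent replicates, the changes in the cultures correlated at r = 0.524 (rho = 0.41, n = 13075), and at r = 0.726 over the 10103 genes with at least 5 CPM in 1 of the 4 groups.

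The change was smaller in size with LPS than with CD40L for 291 of the 382 genes (76.2%), where this was so for 66.7% of all genes tested. The most frequent pattern, in 138 genes (36.1%), was a fall called with CD40L and not with LPS. A further 68 genes rose with CD40L alone by this threshold, 43 rose and 13 fell with LPS alone, 32 rose in both, 31 fell in both, 23 were called in opposite directions and 34 were called in neither culture. Calls on one side alone are a description, and the evidence for each gene is the test of its difference. The difference exceeded 2 on the log2 scale for 55 of the genes with higher values and 27 of those with lower values. With 2 libraries a group the number called was sensitive to single libraries, and fell to 103 without control replicate 2 with LPS, 125 without PU.1 cKO replicate 1 with LPS, 131 without PU.1 cKO replicate 2 with CD40L and 205 without PU.1 cKO replicate 2 with LPS. Of the 58 called genes that the naming rule gave, 23 stayed called whichever of the 8 libraries was left out, 17 lost the call in 1 to 4 of these fits and 18 in 5 to 8. For 1 gene, exact permutation of 2 against 2 libraries reaches no p under 0.333, so the adjusted p-values rest on the spread estimated across genes.

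**Figure D1:**
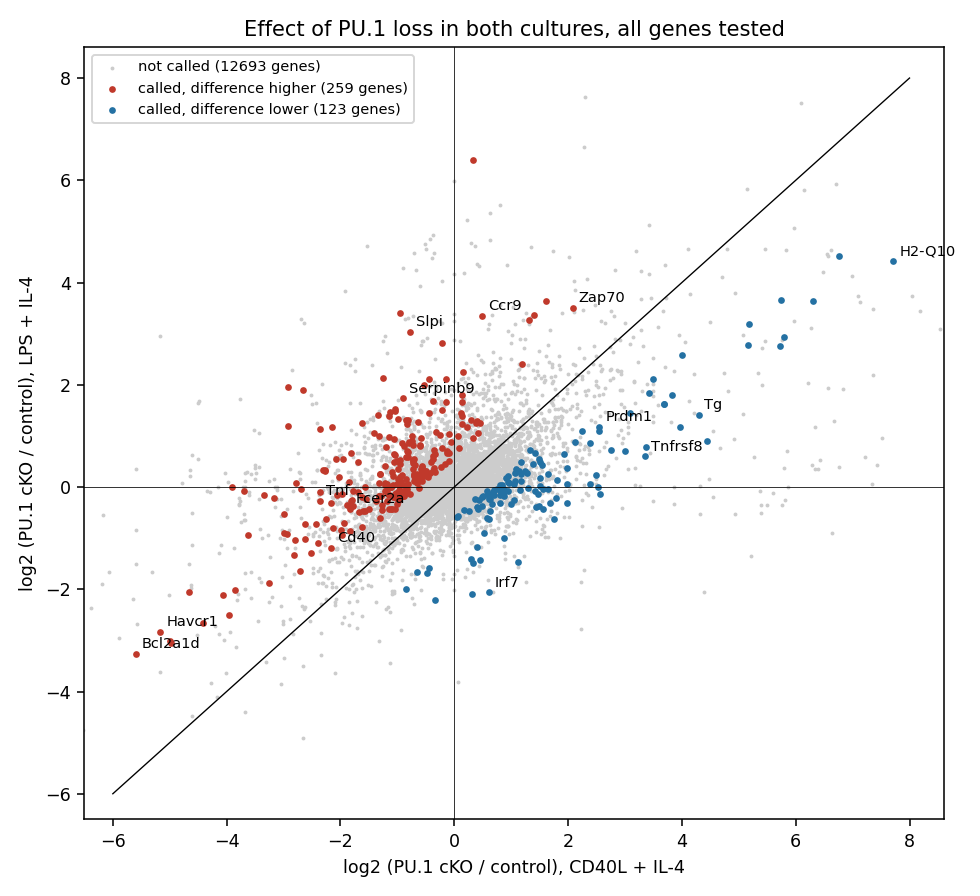
Each point is a gene tested; the x axis is log2 (PU.1 cKO / control) with CD40L + IL-4 and the y axis the same with LPS + IL-4, with genes called for the difference in red (259, higher) and blue (123, lower) and the line marking equal changes. Red points crowd to the left of the vertical axis near 0 on the y axis, which are genes that fell with CD40L and changed less with LPS; 14 points lie outside the axes.

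Fcer2a and Cd40, receptors of the B cell surface, had higher values with LPS. Fcer2a (Entrez ID 14128, chr8:3680280-3694174), which encodes the low-affinity IgE receptor CD23, stood at 1042 and 1099 CPM in control and 294 and 306 in PU.1 cKO with CD40L. With LPS it stood at 773 and 716 CPM in control and 613 and 489 in PU.1 cKO. The PU.1 cKO libraries were below control in both cultures, by a wide gap with CD40L and a narrow one with LPS. The changes were -1.84 (SE 0.15) with CD40L and -0.43 (SE 0.15, not called) with LPS, a difference of 1.40 (SE 0.21, edgeR adjusted p = 0.00726). Its 3′ end overlaps that of Trappc5, so reads there are uncertain for both genes.

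Cd40 (Entrez ID 21939, chr2:165055614-165071654), the receptor of CD40L itself, fell in both cultures. It stood at 183 and 207 CPM in control and 92.6 and 77.9 in PU.1 cKO with LPS, and at 116 and 167 in control against 30.3 and 32.4 in PU.1 cKO with CD40L. The groups did not overlap in either culture, and the PU.1 cKO libraries with CD40L were the lowest of all. The fall was -1.19 (SE 0.16) with LPS and -2.17 (SE 0.17) with CD40L, a difference of 0.97 (SE 0.23, edgeR adjusted p = 0.0652). This call was lost in 6 of the 8 fits without a library (adjusted p = 0.294 without PU.1 cKO replicate 1 with LPS). Of the 18 CD40 signalling genes tested, Cd40 was the 1 called for the difference, where 2.92% of all genes were, and 1 fell with LPS and 6 with CD40L, where 3.19% and 9.12% of all genes fell.

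Among the NF-kB subunits and inhibitors, 2 of 19 were called for the difference, both higher, against 1.98% of all genes. Nfkbie, an inhibitor that holds NF-kB in the cytoplasm, stood at 109 and 101 CPM in control and 98.4 and 87.2 in PU.1 cKO with LPS, and at 108 and 115 in control against 44.9 and 44.6 in PU.1 cKO with CD40L. The control libraries of the cultures were alike, and the PU.1 cKO libraries with CD40L stood apart from the other 6. The changes were -0.18 (SE 0.16) and -1.32 (SE 0.16), a difference of 1.14 (SE 0.22, edgeR adjusted p = 0.0276) that was kept without any single library. In B cell receptor signalling, 1 of 31 genes was called for the difference, near the 2.92% of all genes, and 5 fell with LPS and 11 with CD40L (3.19% and 9.12% of all genes). That gene was Rasgrp3, a guanine nucleotide exchange factor that activates Ras downstream of the receptor. Its level was 132 and 116 CPM in control and 77.8 and 59.4 in PU.1 cKO with LPS, and 292 and 228 in control against 71.6 and 73.6 in PU.1 cKO with CD40L. The groups were separate in both cultures, and PU.1 cKO libraries reached a like level in both, from a control level that was higher with CD40L. The difference of 0.98 (SE 0.23, edgeR adjusted p = 0.0634) was lost in 5 of the 8 fits (adjusted p = 0.304 without PU.1 cKO replicate 1 with LPS). Ptpn6, the phosphatase SHP-1, which dampens that receptor's signal, changed by -0.42 (SE 0.12) with LPS, under the fold threshold, and by -1.14 (SE 0.12) with CD40L, a difference of 0.72 (SE 0.17, edgeR adjusted p = 0.0605, lost in 3 of the 8 fits, adjusted p = 0.295 without PU.1 cKO replicate 1 with LPS).

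Tnf (Entrez ID 21926, chr17:35199367-35202007), an inflammatory cytokine, fell with CD40L and was not called with LPS. It stood at 33.6 and 32.9 CPM in control and 28.3 and 27.0 in PU.1 cKO with LPS, and at 6.17 and 8.11 in control against 1.23 and 1.44 in PU.1 cKO with CD40L. PU.1 cKO lay below control in both cultures, narrowly with LPS. The gene lies among the H2 genes of chromosome 17. The changes were -0.27 (SE 0.21, not called) and -2.36 (SE 0.29), a difference of 2.09 (SE 0.35, edgeR adjusted p = 0.013) kept without any single library. The list of cytokines and chemokines had 24 genes tested, 5 with a higher difference and 1 with a lower one (1.98% and 0.941% of all genes), and a median difference of 1.37 against 0.03 for all genes. With the list restricted to the 11 genes that averaged at least 2 CPM in both cultures, the median was 0.58, and it was -0.10 with LPS and -0.68 with CD40L. Of these 11, 2 were called for the difference, against 312 of the 10239 genes so measured. In cells without SpiB, described below, the median contrast of the list was -0.43. There 0 genes were called higher and 3 lower (5.88% and 6.18% of all genes).

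Genes of cell survival went both ways. Bcl2a1d (Entrez ID 12047, chr9:88723288-88731850), an antiapoptotic member of the BCL2 family, fell strongly in both cultures. Its level was 86.1 and 100.2 CPM in control and 10.8 and 8.40 in PU.1 cKO with LPS, and 19.9 and 27.7 in control against 0.617 and 0.456 in PU.1 cKO with CD40L. Control and PU.1 cKO were far apart in each culture. The falls were -3.27 (SE 0.22) and -5.60 (SE 0.31), a difference of 2.33 (SE 0.38, edgeR adjusted p = 0.0124), which was not kept without PU.1 cKO replicate 2 with CD40L (1.97, adjusted p = 0.275). Bcl2a1d has near-identical copies in the genome, so reads may have been split among them. Bcl2, also antiapoptotic, changed by -0.36 (SE 0.15, not called) with LPS and fell by 1.28 on the log2 scale with CD40L (difference 0.92, SE 0.22, edgeR adjusted p = 0.0707, and 0.278 without PU.1 cKO replicate 2 with CD40L).

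Bcl2l11 (Entrez ID 12125, chr2:128126038-128162547), which encodes the proapoptotic protein BIM, went the other way. It stood at 79.6 and 75.0 CPM in control and 74.7 and 82.6 in PU.1 cKO with LPS, where the groups overlapped. With CD40L it stood at 77.9 and 78.1 CPM in control and 252 and 191 in PU.1 cKO, apart from the other 6 libraries. The difference was -1.48 (SE 0.26, edgeR adjusted p = 0.0167) and was kept without any single library. Bmf, another proapoptotic member, fell with LPS by 1.44 on the log2 scale (SE 0.35) and was not called with CD40L (0.45, SE 0.41). Its difference of -1.89 (SE 0.54, edgeR adjusted p = 0.128) was lost in 7 of the 8 fits. Over the BCL2 family, 2 of 17 genes had a higher difference and 2 a lower one (1.98% and 0.941% of all genes), with a median of -0.08.

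Promoters of Bcl2a1d and Rasgrp3, both lower in PU.1 cKO in each culture, hold the letters GAGGAAGT, a sequence that PU.1 is known to bind. They are printed from RefSeq (GRCm38.p6) with those letters in capitals, on the strand of the gene.
Bcl2a1d (chr9:88731922-88731979, minus strand): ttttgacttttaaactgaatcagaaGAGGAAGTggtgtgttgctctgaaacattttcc
Rasgrp3 (chr17:75435830-75435887, plus strand): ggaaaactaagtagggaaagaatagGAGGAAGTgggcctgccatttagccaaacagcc
The letters were searched on both strands from 250 bases before to 50 after each start. They occurred in 3.2% of all 32851 promoters of the table and in 385 of the 9806 tested genes with a promoter entry (3.93%). Among genes that fell in PU.1 cKO they occurred in 57 of 918 with CD40L (6.21%), in 34 of 309 with LPS (11%) and in 22 of 224 that fell in both (9.82%). Among genes called for the difference they occurred in 20 of 209 with a higher value (9.57%) and 1 of 93 with a lower value (1.08%). These are shares of promoters with a match and do not show binding.

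Lysosomal genes and receptors of the cell surface showed the same pattern in part. Ctsb, the lysosomal protease cathepsin B, stood at 106 and 105 CPM in control and 114 and 113 in PU.1 cKO with LPS, and at 237 and 299 in control against 139 and 137 in PU.1 cKO with CD40L. It fell with CD40L and was not called with LPS (0.10, SE 0.12), a difference of 1.06 (SE 0.17, edgeR adjusted p = 0.0124). In the lysosome list, 3 of 24 genes had a higher difference (Ctsb, Lamp2 and Cd68) and 0 a lower one, against 1.98% and 0.941% of all genes. Of the list, 6 fell with LPS and 10 with CD40L, against 3.19% and 9.12%. Lamp2, a membrane protein of the lysosome, lost its call in 7 of the 8 fits. S1pr3, a receptor for sphingosine 1-phosphate, fell in both cultures, from 75.8 and 57.6 to 35.8 and 29.5 CPM with LPS and from 82.7 and 89.8 to 12.2 and 15.2 CPM with CD40L. Its groups did not overlap, and the difference was 1.60 (SE 0.22, edgeR adjusted p = 0.00619). Abcb4, a phospholipid transporter, fell from 14 and 11.7 to 1.95 and 1.98 CPM with CD40L. With LPS it stood at 1.82 and 1.33 CPM in control and 1.56 and 1.42 in PU.1 cKO, at the level that PU.1 cKO cells had with CD40L (difference 2.66, SE 0.46, edgeR adjusted p = 0.0136). The calls of S1pr3, Ctsb and Abcb4 were kept without any single library.

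Several genes with a higher difference came with a caution. Havcr1, which encodes the receptor TIM-1, fell from 35.9 and 35.1 to 1.23 and 0.895 CPM with CD40L and from 2.75 and 2.56 to 0.520 and 0.137 CPM with LPS. Its difference of 2.34 (SE 0.51, edgeR adjusted p = 0.0463) dropped to 0.94 (adjusted p = 0.778) without PU.1 cKO replicate 1 with LPS. Lilrb4, an inhibitory receptor with near-identical copies in the genome, fell from 8.77 and 10.2 to 0.309 and 0.388 CPM with CD40L and from 2.54 and 2.29 to 0.574 and 0.575 CPM with LPS (difference 2.60, SE 0.52, edgeR adjusted p = 0.0302, and 0.21 without PU.1 cKO replicate 2 with CD40L). Emr1 (F4/80) and Cd68, which mark macrophages, also had higher differences of 1.95 (SE 0.46) and 1.63 (SE 0.31). Emr1 stood at 28.3 and 43.5 CPM in control with CD40L and 1.54 and 2.38 in PU.1 cKO, and lost its call in 5 of the 8 fits.

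**Figure D2:**
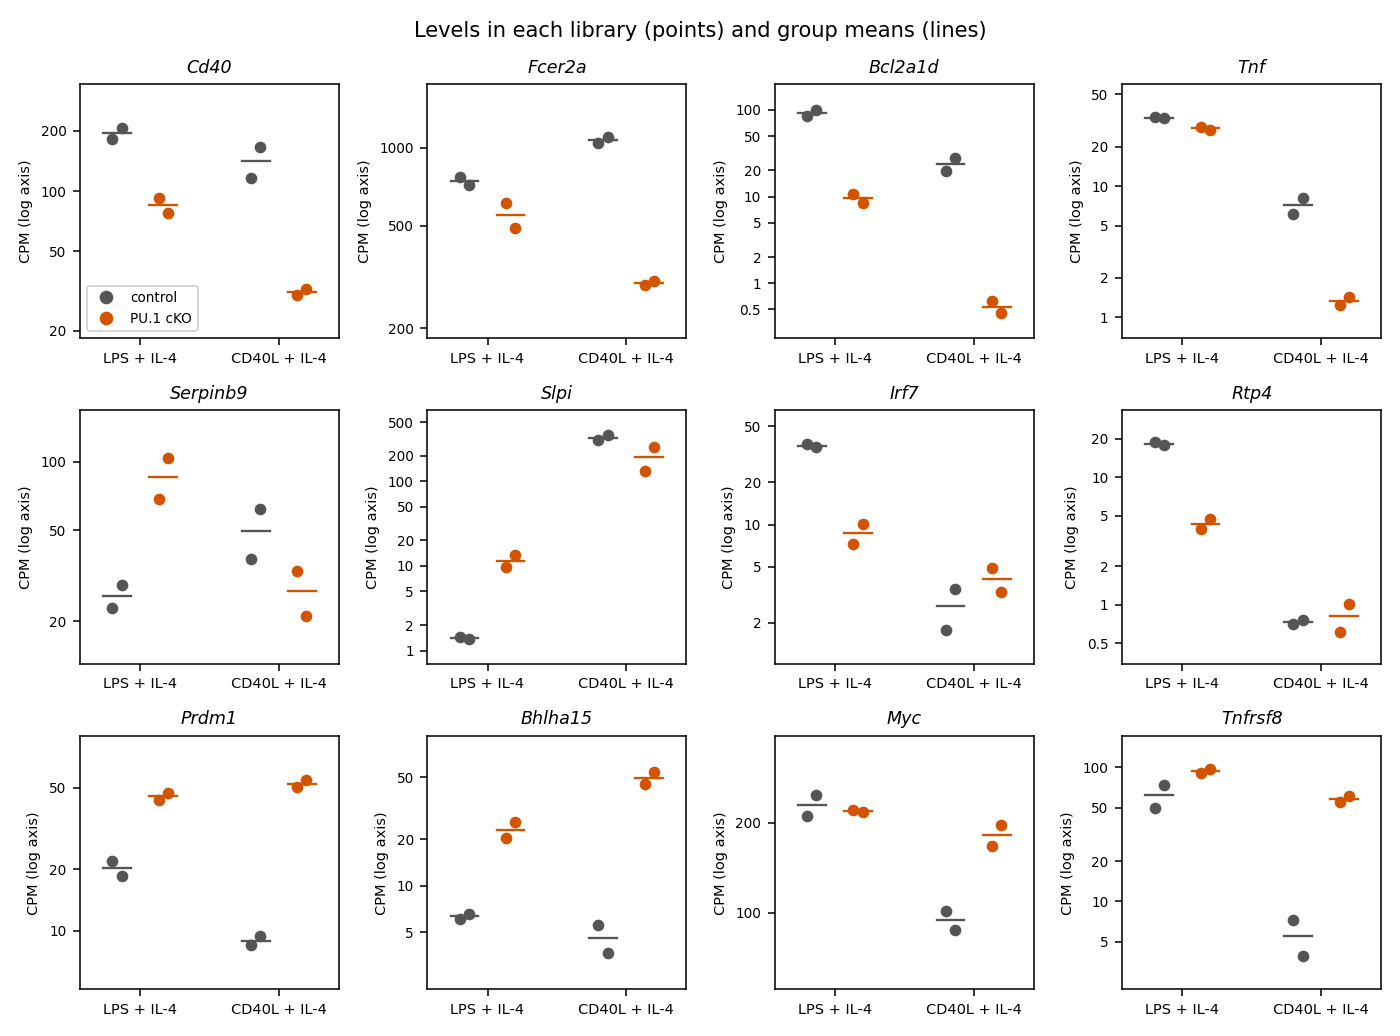
Level in each library of 12 genes, on log axes in CPM, for control (grey) and PU.1 cKO (orange) in both cultures; points are libraries and lines group means (n = 2). Cd40, Fcer2a, Bcl2a1d and Tnf dropped further with CD40L. Serpinb9 and Slpi were higher in PU.1 cKO with LPS and lower with CD40L, and Irf7 and Rtp4 dropped with LPS. Prdm1 and Bhlha15 rose in both cultures and further with CD40L, while Myc and Tnfrsf8 rose with CD40L and were not called with LPS.

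By the call rule 23 of the 382 genes changed in opposite directions in the cultures, 21 of them up with LPS and down with CD40L. The fall with CD40L was near the threshold for Slpi (edgeR adjusted p = 0.144), Serpinb9 (0.107) and Ccl3 (0.11). It was further from the threshold for Serpinb6b (0.00185), Tnfsf14 (0.00551) and Egr2 (0.00928). Slpi (Entrez ID 20568, chr2:164354070-164356507), a secreted inhibitor of serine proteases, stood at 1.44 and 1.38 CPM in control and 9.61 and 13.5 in PU.1 cKO with LPS. With CD40L it stood at 308 and 349.7 CPM in control and 131 and 251 in PU.1 cKO. Levels with CD40L were far above those with LPS in every library, and the control and PU.1 cKO groups did not overlap in either culture. The changes were 3.03 (SE 0.44) and -0.78 (SE 0.34), a difference of 3.80 (SE 0.56, edgeR adjusted p = 0.00629).

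A pair of neighbouring genes on chromosome 13, Serpinb9 and Serpinb6b, which encode intracellular protease inhibitors (that of Serpinb9 inhibits granzyme B), did the same. Serpinb9 went from 22.8 and 28.8 to 68.5 and 104 CPM with LPS and from 37.6 and 62.1 to 33.0 and 21.1 CPM with CD40L. Serpinb6b went from 25.3 and 24.9 to 57.6 and 81.3 CPM with LPS and from 103 and 121 to 51.3 and 51.1 CPM with CD40L. For each gene the groups were separate in both cultures, above control with LPS and below it with CD40L. The differences were 2.64 (SE 0.50, edgeR adjusted p = 0.0241) and 2.59 (SE 0.29, edgeR adjusted p = 0.00129). Tnfsf14, the cytokine LIGHT, behaved alike at low levels (1.56 and 1.58 to 3.40 and 3.09 CPM with LPS, 2.06 and 3.35 to 0.926 and 1.03 with CD40L; difference 2.47, SE 0.39, edgeR adjusted p = 0.0101). Egr2, an immediate early transcription factor, rose from 7.48 and 7.53 to 14.4 and 12.6 CPM with LPS and fell from 46.2 and 33.3 to 25.1 and 21.4 CPM with CD40L (difference 1.64, SE 0.26, edgeR adjusted p = 0.0101). These calls, and that of Slpi, were kept without any single library.

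Cd2, an adhesion receptor of T cells that B cells of the mouse also express, had a difference of 1.55 (SE 0.27, edgeR adjusted p = 0.0157), with 16.8 and 17.9 CPM in control and 29.4 and 32.1 in PU.1 cKO with LPS, and 44.4 and 57.4 in control against 29.9 and 31.3 in PU.1 cKO with CD40L. Zap70, a kinase of the T cell receptor, rose in both cultures, from 1.99 and 1.81 to 23.9 and 18.5 CPM with LPS and from 13.8 and 14.1 to 53.6 and 63.5 CPM with CD40L (difference 1.42, SE 0.32, edgeR adjusted p = 0.0533). Thy1, a surface glycoprotein of T cells, rose with LPS from 38 and 30.7 to 81.7 and 88.9 CPM and was not called with CD40L (difference 1.03, SE 0.20, edgeR adjusted p = 0.0282). The calls of Zap70 and Thy1 were lost without control replicate 2 with LPS (adjusted p = 0.269 and 0.152). These 3 genes belong to the T cell marker list, of which 9 of 16 were tested, and the CD3 chain genes were too low to test.

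Among homing receptors and integrins, 7 of 24 genes had a higher difference and 1 a lower one, where 1.98% and 0.941% of all genes did. Ccr9, the receptor that directs lymphocytes to the gut, stood at 0.761 and 0.753 CPM in control and 7.30 and 8.10 in PU.1 cKO with LPS, and at 0.805 and 0.541 in control against 1.23 and 0.844 in PU.1 cKO with CD40L. Both PU.1 cKO libraries with LPS stood well above the other 6. The difference of 2.85 (SE 0.57, edgeR adjusted p = 0.0315) rested on 9 and 5 counts in the control libraries with CD40L, and without control replicate 1 with CD40L it was 2.52 (adjusted p = 0.188). S1pr2, a sphingosine 1-phosphate receptor that confines B cells to germinal centres, rose from 0.972 and 1.31 to 3.20 and 4.35 CPM with LPS and was not called with CD40L (-0.38, SE 0.28), a difference of 2.06 (SE 0.39, edgeR adjusted p = 0.0241) kept without any single library. Rgs1, which dampens signals of chemokine receptors, rose from 1.27 and 0.520 to 3.42 and 3.04 CPM with LPS (difference 2.52, SE 0.49, edgeR adjusted p = 0.0243, and 0.152 without control replicate 2 with LPS). The chemokine gene Ccl3 rose from 2.16 and 4.27 to 8.33 and 8.87 CPM with LPS and fell from 1.97 and 1.51 to 1.03 and 0.709 CPM with CD40L (difference 2.52, SE 0.55, edgeR adjusted p = 0.0458, and 0.285 without PU.1 cKO replicate 2 with CD40L).

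Of the 24 genes of the plasma cell programme, 15 rose with LPS and 16 with CD40L, where 5.58% and 7.62% of all genes rose, and 5 had a lower difference (0.941% of all genes). Prdm1 (Entrez ID 12142, chr10:44437174-44528558), which encodes BLIMP-1, the repressor that drives plasma cell differentiation, stood at 22.0 and 18.5 CPM in control and 43.7 and 47.2 in PU.1 cKO with LPS. With CD40L it stood at 8.50 and 9.41 CPM in control and 50.1 and 54.4 in PU.1 cKO. The PU.1 cKO levels of the cultures lay close together, while the control level was higher with LPS. The rises were 1.17 (SE 0.13) and 2.55 (SE 0.14), a difference of -1.38 (SE 0.19, edgeR adjusted p = 0.00619) kept without any single library. Sdc1, which encodes CD138, the marker by which plasma cells were removed in the sort, stood at 8.37 and 7.56 CPM in control and 7.82 and 7.72 in PU.1 cKO with LPS, where the groups overlapped, and rose from 4.38 and 4.32 to 10.9 and 14.5 CPM with CD40L (difference -1.60, SE 0.27, edgeR adjusted p = 0.0126). Bhlha15 (MIST1), a regulator of the secretory apparatus, rose from 6.13 and 6.61 to 20.2 and 25.8 CPM with LPS and from 5.55 and 3.68 to 45.3 and 53.8 CPM with CD40L. Its difference of -1.57 (SE 0.42, edgeR adjusted p = 0.106) was lost in 6 of the 8 fits (adjusted p = 0.355 without PU.1 cKO replicate 1 with LPS). Derl3, of endoplasmic reticulum quality control, had a difference of -1.28 (SE 0.28, edgeR adjusted p = 0.0465, and 0.196 without control replicate 2 with LPS).

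Other regulators of this programme were not called for the difference. Irf4, needed for plasma cells, rose by 0.71 with LPS and 0.67 with CD40L (difference 0.04, 95% interval -0.55 to 0.63). Ell2, an elongation factor for secreted immunoglobulin transcripts, rose by 1.80 in each culture (95% interval of the difference -0.48 to 0.48). Xbp1, the factor of the unfolded protein response, stood at 357 and 362 CPM in control and 667 and 739.9 in PU.1 cKO with LPS (0.97, called) and at 823 and 985 in control against 1143 and 1335 in PU.1 cKO with CD40L (0.45, not called), a difference of 0.51 (SE 0.21, edgeR adjusted p = 0.308) that did not pass. Over the whole programme the median change was 0.74 with LPS and 0.87 with CD40L and the median difference 0.03, the same as for all genes. The 35 genes of protein folding and export in the endoplasmic reticulum had 0 called for the difference (2.92% of all genes were), with a median of -0.14. Of these 35 genes, 1 rose with LPS and 9 with CD40L (5.58% and 7.62% of all genes).

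Some genes that rose with CD40L were already high in control cells with LPS. Tnfrsf8 (Entrez ID 21941, chr4:145267132-145315164), which encodes the activation receptor CD30, rose from 7.25 and 3.89 to 54.7 and 60.8 CPM with CD40L. With LPS it stood at 50.1 and 73.2 CPM in control and 90.2 and 97.1 in PU.1 cKO, so that control libraries with LPS were in the range of PU.1 cKO libraries with CD40L or close to it. The difference was -2.76 (SE 0.39, edgeR adjusted p = 0.00619). Tigit, an inhibitory receptor, rose from 1.16 and 0.541 to 5.66 and 4.90 CPM with CD40L and was not called with LPS, where it stood at 6.59 and 10.5 in control against 6.99 and 8.67 in PU.1 cKO (difference -2.71, SE 0.45, edgeR adjusted p = 0.0126). Rgcc, a regulator of the cell cycle whose level was low in control cells of both cultures, rose in both, from 2.28 and 1.76 to 5.02 and 3.89 CPM with LPS and from 0.537 and 0.541 to 7.10 and 9.54 CPM with CD40L (difference -2.80, SE 0.47, edgeR adjusted p = 0.013). All of these calls were kept without any single library. In the control libraries with CD40L, Tigit held 13 and 5 counts and Rgcc 6 and 5, so the sizes of their differences are uncertain.

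Myc (Entrez ID 17869, chr15:61985341-61990361), the growth regulator, stood at 211 and 246 CPM in control and 219.7 and 216 in PU.1 cKO with LPS, where the groups overlapped. With CD40L it rose from 101 and 87.5 to 167 and 196 CPM. The difference of -1.02 (SE 0.25, edgeR adjusted p = 0.0728) was lost in 5 of the 8 fits (adjusted p = 0.28 without control replicate 2 with LPS). In the list of the MYC network and growth genes, 1 of 19 was called for the difference (2.92% of all genes), 1 rose with LPS and 5 with CD40L (5.58% and 7.62% of all genes), and the median difference was -0.35, with 16 of 19 below 0. Batf, an AP-1 factor needed for class switching, rose from 68.3 and 80.7 to 123 and 137 CPM with CD40L and was not called with LPS (169 and 200.5 for control against 144 and 155 for PU.1 cKO), a difference of -1.11 (SE 0.25, edgeR adjusted p = 0.0524, and 0.225 without PU.1 cKO replicate 1 with LPS). Il10, an immunoregulatory cytokine, stood at 6.60 to 6.93 CPM in all 4 libraries with LPS and at 0.179 and 0.108 in control against 1.23 and 0.743 in PU.1 cKO with CD40L. Its control libraries with CD40L held 2 and 1 counts, so the fitted difference of -2.54 (SE 0.61, edgeR adjusted p = 0.0732, and 0.211 without control replicate 2 with CD40L) depends on the counts added in the fit.

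Interferon-stimulated genes had a larger median change with LPS than with CD40L. Of 31 tested, 25 fell and 0 rose with LPS (3.19% of all genes fell), while 8 fell and 1 rose with CD40L (9.12% fell). The median change was -1.17 with LPS and -0.38 with CD40L, against 0.00 and -0.01 for all genes, and 5 had a lower difference (0.941% of all genes) and 1 a higher one. The same contrast in cells without SpiB, described below, had a median of -0.18 over the list. There 6 genes were called lower and 1 higher (6.18% and 5.88% of all genes). Control cells with CD40L expressed part of these genes weakly, since 9 of the 31 averaged under 1 CPM there, as did 1772 of the 13075 genes tested. With CD40L the mean of control or of PU.1 cKO was 0 for 4 of the 31, and for 112 of all genes tested. Over the 19 genes with at least 2 CPM on average in both cultures the medians were -0.85 with LPS and -0.35 with CD40L, the median difference was -0.55, and the change was larger in size with LPS for 17.

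Irf7 (Entrez ID 54123, chr7:141263183-141266499), the interferon regulatory factor that amplifies the type I interferon response, stood at 37.2 and 35.3 CPM in control and 7.32 and 10.1 in PU.1 cKO with LPS. With CD40L it stood at 1.79 and 3.46 CPM in control and 4.94 and 3.33 in PU.1 cKO, where the groups overlapped. The control libraries with LPS stood above the other 6. The changes were -2.06 (SE 0.23) and 0.60 (SE 0.31, not called), a difference of -2.67 (SE 0.38, edgeR adjusted p = 0.00619) kept without any single library. Dhx58 (LGP2), a sensor of viral RNA, fell from 60.8 and 60.1 to 18.4 and 19.4 CPM with LPS and stood at 14 and 15.4 in control against 12.4 and 9.20 in PU.1 cKO with CD40L (difference -1.21, SE 0.30, edgeR adjusted p = 0.0797). Rtp4, a chaperone of G protein-coupled receptors, fell from 18.8 and 17.7 to 3.92 and 4.71 CPM with LPS (difference -2.39, SE 0.58, edgeR adjusted p = 0.0702), and Usp18, the protease that removes ISG15 from proteins, from 9.63 and 12.6 to 2.35 and 2.44 CPM (difference -1.89, SE 0.50, edgeR adjusted p = 0.103). Both stood between 0.617 and 1.23 CPM in all 4 libraries with CD40L, and their calls were lost in 5 and 6 of the 8 fits (adjusted p = 0.578 for Rtp4 without PU.1 cKO replicate 2 with CD40L, 0.333 for Usp18 without control replicate 2 with LPS). Zbp1, a sensor of nucleic acids, fell with LPS and rose with CD40L (difference -1.23, SE 0.30, edgeR adjusted p = 0.0684). Libraries of SpiB KO with LPS, from mice without Cre, also stood below these control libraries for 3 of the genes named. Irf7 stood there at 11.8 and 12.1 CPM, Rtp4 at 6.52 and 6.12 and Usp18 at 3.38 and 3.95. The part of a high level in control with LPS in these differences was not tested.

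Some genes of the list also fell with CD40L. Oasl1, of the oligoadenylate synthetase family, fell from 209 and 246 to 109 and 105 CPM with LPS and from 2.06 and 2.16 to 0.514 and 0.372 CPM with CD40L. Its difference of 1.31 (SE 0.38, edgeR adjusted p = 0.137) was lost in every one of the 8 fits without a library. Oas1a, a synthetase of the same family, fell by 1.40 on the log2 scale with LPS and by 1.0 with CD40L (95% interval of the difference -1.09 to 0.29). Isg15, a ubiquitin-like modifier, stood at 97.4 and 118 CPM in control and 35.1 and 33.9 in PU.1 cKO with LPS, and at 0.0844 to 0.720 CPM in all 4 libraries with CD40L, too low for a comparison of the cultures. Peli1, a ubiquitin ligase of Toll-like receptor signalling that was the 1 of 27 genes called for the difference in the TLR4 list (2.92% of all genes were called), fell from 89.0 and 92.1 to 49.7 and 47.3 CPM with LPS. With CD40L it stood at 68.2 and 64.7 CPM in control and 101 and 88.8 in PU.1 cKO, a change of 0.52 that lay under the fold threshold. The PU.1 cKO libraries were thus below control with LPS and above it with CD40L, and the difference of -1.42 (SE 0.21, edgeR adjusted p = 0.00637) was kept without any single library.

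The interferon response element, written here as GAAANNGAAA, is the sequence through which interferon-stimulated genes are known to be induced. Promoters of 5 genes of the list held at least 2 matches (overlapping matches counted separately, both strands searched) and are printed from RefSeq (GRCm38.p6) on the strand of the gene, with the matches in capitals. Capitals that begin with TTTC are the element on the other strand.
Isg15 (chr4:156200850-156200921, minus strand): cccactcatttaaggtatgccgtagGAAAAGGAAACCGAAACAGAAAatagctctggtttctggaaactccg
Ifit1 (chr19:34640760-34640838, plus strand): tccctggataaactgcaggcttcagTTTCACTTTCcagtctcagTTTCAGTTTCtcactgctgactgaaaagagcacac
Ifit3 (chr19:34583348-34583441, plus strand): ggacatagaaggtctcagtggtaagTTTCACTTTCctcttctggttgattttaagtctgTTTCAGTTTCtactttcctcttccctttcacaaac
Oas1a (chr5:120907505-120907570, minus strand): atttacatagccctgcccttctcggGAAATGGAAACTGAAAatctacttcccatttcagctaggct
Bst2 (chr8:71537562-71537627, minus strand): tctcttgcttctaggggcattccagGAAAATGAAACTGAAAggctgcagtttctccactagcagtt
Of the 31 interferon-stimulated genes tested, 22 had a promoter entry and 11 of these held the element (50%), against 3.44% of all 32851 promoters and 371 of the 9806 tested genes with an entry (3.78%). It occurred in 45 of 309 genes that fell with LPS (14.6%), in 58 of 918 that fell with CD40L (6.32%), in 8 of 93 with a lower difference (8.6%) and in 8 of 209 with a higher one (3.83%). The PU.1 letters GAGGAAGT were found in 0 of the 22, in these windows, and 0 of the 33 promoters that held both motifs had them overlapping. Irf7 and Oasl1 had an entry without a match. Of the genes whose promoters are shown, Ifit1, an inhibitor of translation of viral RNA, stood at 63.4 and 80.5 CPM in control and 20.3 and 16.5 in PU.1 cKO with LPS. Bst2, which tethers virus to the cell surface, stood at 67.4 and 90.5 CPM in control and 52.1 and 66.8 in PU.1 cKO with LPS, and was not called.

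**Figure D3:**
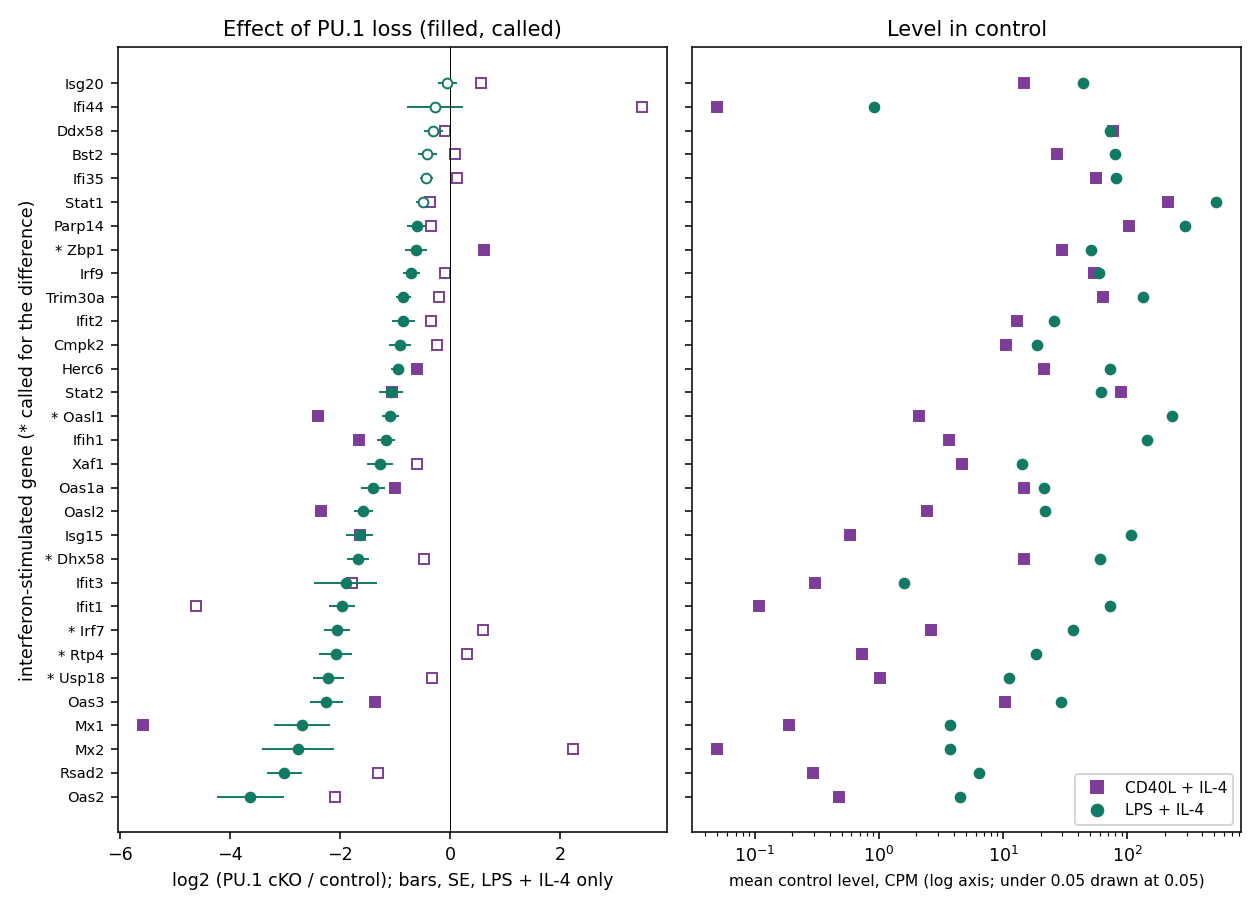
The left panel gives log2 (PU.1 cKO / control) of the 31 interferon-stimulated genes tested with LPS + IL-4 (green, bars SE) and CD40L + IL-4 (purple, no bars), filled where called and starred where called for the difference; the right panel gives the mean control level in CPM on a log axis, with values under 0.05 drawn at 0.05. All 31 lie below 0 with LPS and 25 are filled, while the purple points scatter widely for genes with a low level in the right panel.

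Genes of the major histocompatibility complex on chromosome 17 made up part of the lowest differences. H2-Q10 (Entrez ID 15007, chr17:35470089-35474563), a class I gene of secreted type, rose from 4.14 and 3.32 to 85.1 and 72.7 CPM with LPS and from 0.447 and 0.865 to 81.6 and 187 CPM with CD40L (difference -3.29, SE 0.63, edgeR adjusted p = 0.0243). H2-Q1 rose from 2.70 and 2.53 to 18.1 and 16.9 CPM with LPS and from 0.626 and 1.08 to 26.4 and 61.0 CPM with CD40L (difference -2.97, SE 0.59, edgeR adjusted p = 0.0282). In both genes every PU.1 cKO library was far above every control library, and the PU.1 cKO libraries with CD40L differed from each other. In PU.1 SpiB DKO, H2-Q10 stood at 3.29 and 3.75 CPM with LPS and 1.32 and 0.867 with CD40L, close to SpiB KO (2.89 and 1.87, 0.811 and 0.446) and not called. With voom and quantile normalization both calls were lost (adjusted p = 0.197 for H2-Q10 and 0.152 for H2-Q1). These genes have near-identical copies, so reads may have been assigned among them, and H2-Ea-ps of the same region separated PU.1 cKO from control in the same way. Of the 30 H2 genes tested, 4 were called for the difference, 15 for LPS and 18 for CD40L, where 2.92%, 8.76% and 16.7% of all genes were.

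Of the 13 genes of class II presentation, which serve to show antigen to T cells, 6 fell with LPS and 11 with CD40L. Of all genes, 3.19% and 9.12% fell. The list had medians of -0.53 with LPS and -0.85 with CD40L. Its median difference was 0.15, and 0 were called for the difference, where 2.92% of all genes were. H2-Aa fell by 0.66 on the log2 scale with LPS and by 0.67 with CD40L (95% interval of the difference -0.53 to 0.55). It lies in the H2 region of chromosome 17, as do other class II genes. For genes there, a difference in the H2 haplotype of the mice was not tested and cannot be told apart from PU.1 loss. Tlr4, the receptor for LPS, was not called in either culture and stood at 18.7 and 23.6 CPM in control and 22.1 and 20.4 in PU.1 cKO with LPS, and at 15.6 and 19.6 and 19.3 and 18.6 with CD40L (95% interval of the difference -0.61 to 0.39). The nucleic acid sensor Tlr9 fell in both (95% interval of the difference -0.68 to 0.45).

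Factors of B cell identity, 25 tested, had 0 genes called for the difference, where 2.92% of all genes were, and a median of 0.08. Pax5, the commitment factor, changed by -0.53 (SE 0.17, not called) with LPS and fell by 0.92 with CD40L (SE 0.17), a difference of 0.39 with a 95% interval of -0.12 to 0.90. Genes of DNA replication (28 tested), mitosis (25) and the G1 phase (21) had 0 called for the difference, against the same 2.92%. Their medians were -0.04, -0.01 and 0.01. In lists of this size, 0 calls do not set them apart from the share over all genes. A difference that misses the threshold does not show equal effects, and the intervals give the range of differences that these libraries leave possible.

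**Figure D4:**
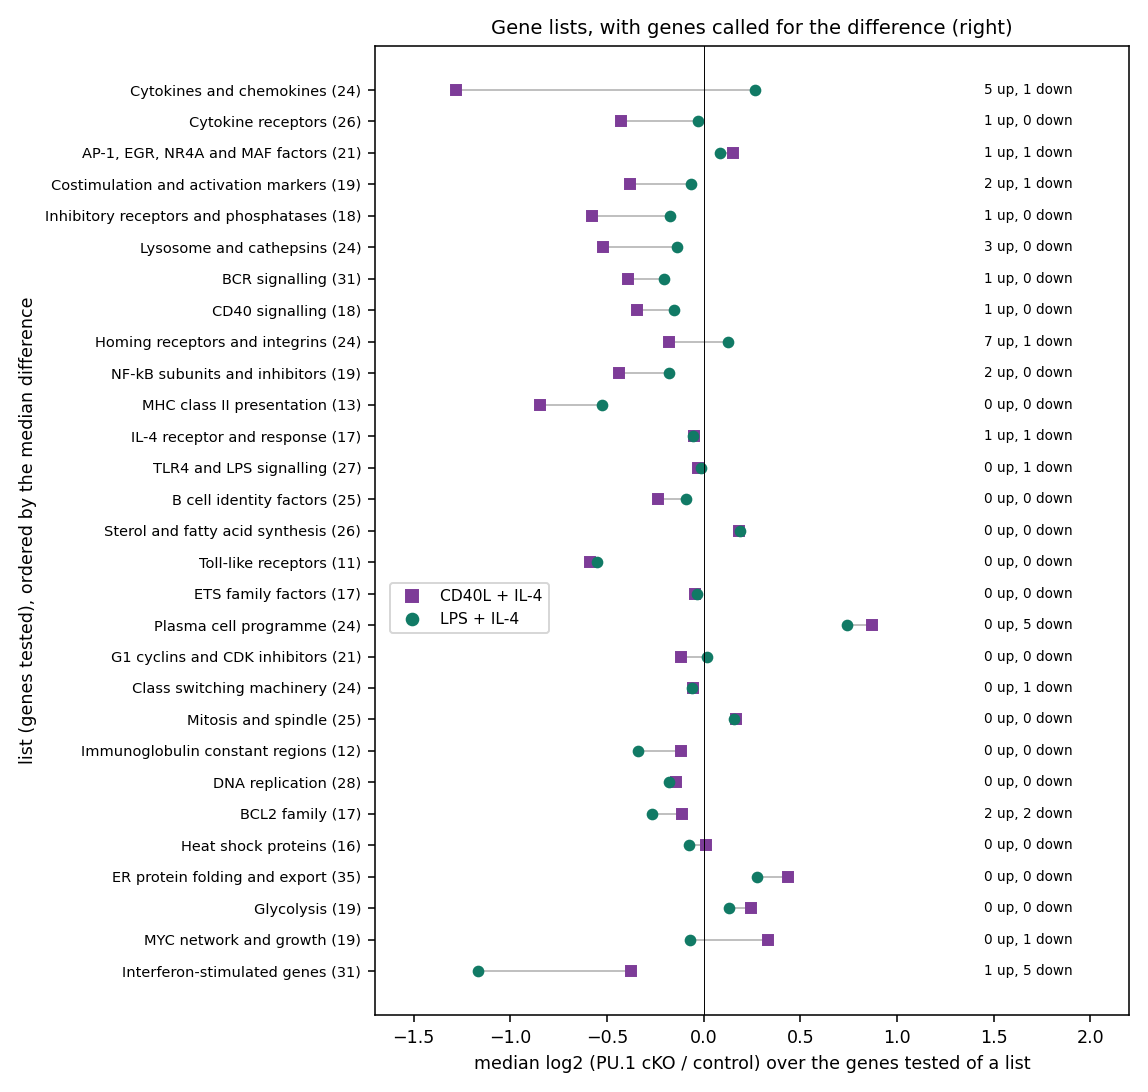
Median log2 (PU.1 cKO / control) over the genes tested of each list other than the cell type markers (number in brackets) with CD40L + IL-4 (purple squares) and LPS + IL-4 (green circles), ordered by the median difference, with the number of genes called for the difference in each direction at the right. Cytokines and chemokines (5 up, 1 down) and interferon-stimulated genes (1 up, 5 down) lie at the ends of the order; medians of lists with many low genes are less certain.

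The same contrast was formed in cells without SpiB, as the change from SpiB KO to PU.1 SpiB DKO with LPS minus that with CD40L. These are other libraries than those above, but with LPS libraries of the same replicate number deviated together across the genotypes too (r = 0.388 to 0.486), and Cre was carried by the DKO and not by SpiB KO. The contrast called 1577 genes (12.1%), 769 higher (5.88%) and 808 lower (6.18%), and this number moved between 345 and 2684 when single libraries were left out (345 without PU.1 SpiB DKO replicate 1 with LPS). Of the 382 genes called in the presence of SpiB, 307 had the same sign without it (80.4%, against 67% of all genes tested), 138 were also called in the same direction (36.1%) and 8 in the opposite one. The median contrast without SpiB was 0.54 for genes with a higher and -0.58 for genes with a lower difference.

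The targeted gene itself differed here. Spi1 stood at 72.9 and 79.5 CPM in SpiB KO against 60.8 and 56.4 in PU.1 SpiB DKO with LPS (-0.38, not called), and at 113 and 94.7 in SpiB KO against 33.1 and 25.9 in PU.1 SpiB DKO with CD40L (-1.82). The contrast was 1.44 (SE 0.24, edgeR adjusted p = 0.00828), so the loss of transcript counted over the whole gene was less with LPS. The study reports from read coverage that the floxed exon was fully excised with CD40L, with or without Spib. It reports a similarly high deletion with LPS. The contrast of Spi1 stands beside each other contrast without SpiB, and its part in them was not tested. Fcer2a, whose regulatory sequences drive Cre, stood at 460 and 421 CPM in SpiB KO against 204 and 175 in PU.1 SpiB DKO with LPS, and at 655 and 611 and 263 and 354 with CD40L, a contrast of -0.18 (SE 0.21, edgeR adjusted p = 0.645).

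Slpi, Prdm1, Sdc1, Tnfrsf8 and Serpinb6b were called in the same direction without SpiB. Slpi went from 1.24 and 0.954 to 33.0 and 19.4 CPM with LPS and stood at 197 and 420 in SpiB KO against 447 and 346 in PU.1 SpiB DKO with CD40L (contrast 4.16, SE 0.56, edgeR adjusted p = 0.0036). Prdm1 rose from 22.6 and 23.4 to 61.3 and 55.7 CPM with LPS and from 5.17 and 6.24 to 46.3 and 51.2 CPM with CD40L (contrast -1.74, SE 0.20, edgeR adjusted p = 0.00129), and as with SpiB present it was the control side, here SpiB KO, that differed most between the cultures. Tnfrsf8 had a contrast of -2.67 (SE 0.39, edgeR adjusted p = 0.00437). Other genes did not keep their difference. Tnf fell with LPS, from 29.7 and 23.8 to 11.6 and 11.3 CPM, and stood at 3.04 and 4.19 in SpiB KO against 2.09 and 4.72 in PU.1 SpiB DKO with CD40L, a contrast of -1.16 (SE 0.38, edgeR adjusted p = 0.0944), opposite in sign to the 2.09 with SpiB present. Cd40 fell in both cultures (contrast -0.15, SE 0.23), Nfkbie had a contrast of -0.13 (SE 0.22), and Serpinb9 one of -0.39 (SE 0.49), none of which passed. Irf7 fell with LPS, from 11.8 and 12.1 to 3.72 and 4.39 CPM, with a contrast of -1.13 (SE 0.45, edgeR adjusted p = 0.155) that missed the threshold.

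**Figure D5:**
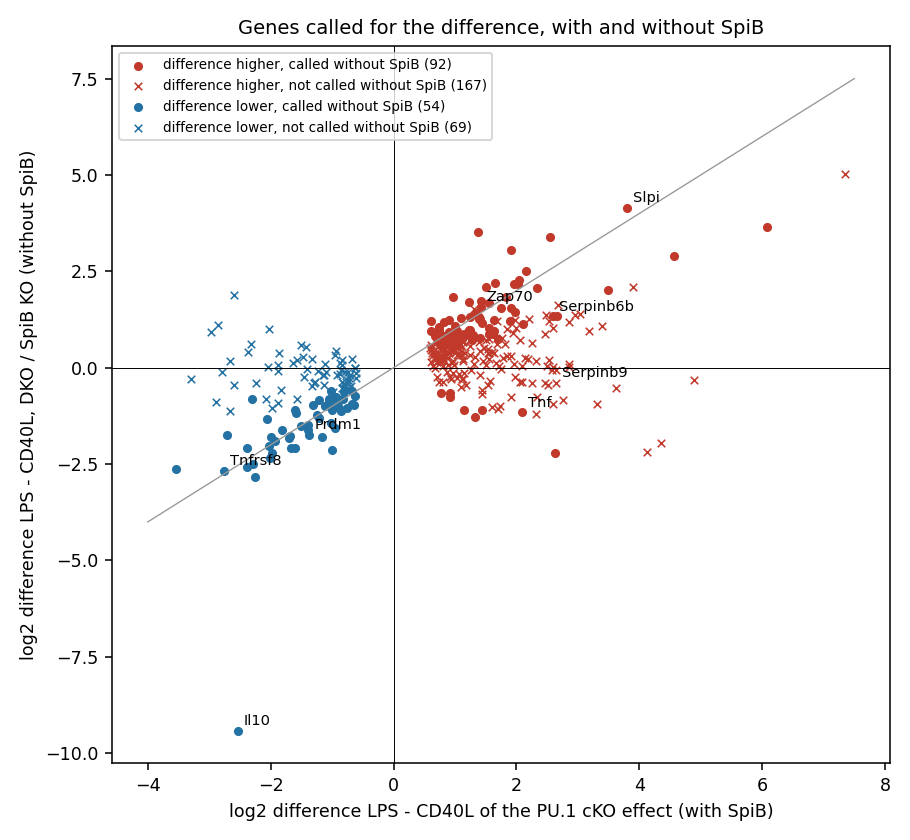
The 382 genes called for the difference, with the log2 difference LPS minus CD40L of the PU.1 effect in the presence of SpiB on the x axis and in its absence (DKO against SpiB KO) on the y axis; circles are genes also called without SpiB, crosses those not called, and the line marks equal values. Most points have the same sign on both axes (307 of 382); Il10, at -9.42 on the y axis, had 0 counts in both SpiB KO libraries with CD40L, so its position depends on the counts added in the fit.

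Genes that PU.1 loss lowered in naive lymph node B cells gave a set chosen on other libraries, 4 in all. With the same threshold 790 genes were lower and 500 higher in naive PU.1 cKO. The 790 lower genes had a median change of -0.95 in naive cells, -0.49 with CD40L and -0.15 with LPS, and 299 of them fell with CD40L (37.8%, against 9.12% of all genes) and 138 with LPS (17.5%, against 3.19%). The log2 change was higher with LPS than with CD40L, so a smaller fall or a larger rise, in 79% of them (624 genes). Shares of this kind were not taken over all genes. Of the 790 genes, 51 had a called higher difference (6.46%, against 1.98% of all genes) and 5 a lower one (0.633%, against 0.941%). Their median difference was 0.31 (SD 0.22 over the 16 choices of 1 library per group), against 0.03 for all genes. The 500 higher genes had medians of 1.05 in naive cells, 0.44 with CD40L and 0.41 with LPS, 186 rose with CD40L and 167 with LPS (7.62% and 5.58% of all genes), and 13 had a higher and 24 a lower difference (1.98% and 0.941%). For these the log2 change was lower with LPS than with CD40L in 51.8%, and their median difference was -0.04.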

How the data were processed

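The authors aligned reads to GRCm38 with Subread and counted uniquely mapped reads on RefSeq exons with featureCounts. The counts deposited by the authors are whole numbers for each of 27179 genes and 24 libraries, and the authors also deposited log2 RPKM values, used here only in an alternative. Entries without a symbol (517, 0.162% of the counts) stayed in the totals and tests. The reads carried no molecular identifiers, so intervals over counts cover counting error only.

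The 16 activated libraries (4 genotypes, 2 cultures, 2 replicates) entered a single edgeR 4.0.16 fit (TMM, quasi-likelihood test) in R 4.3.3, with limma 3.58.1 for voom and DESeq2 1.42.0 as alternatives. The filter kept genes that reached 0.5 CPM in 2 or more libraries. Standard errors are the log2 change divided by the root of the F statistic, and 95% intervals use the t distribution of the fit. The script was first tested on simulated data. The naive set came from a separate fit. Gene positions, on GRCm38, were matched by Entrez ID for 12751 genes (97.5%), and promoters came from RefSeq.

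The members, lists and tests were chosen with earlier results of these data known. The naming rule gave Spi1 and Spib, the 10 largest differences each way among called genes with at least 5 CPM in a group and separate ratios, the 5 largest among genes called in opposite directions, up to 4 called genes a list, and genes the study names. A gene that the rule names is not reported here. Dhx58, Zbp1, Isg15, Ifit1, Ifit3, Oas1a, Bst2 and H2-Aa were named after their values were seen. Lists are described by counts and medians, with no test of a list.

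Libraries with the same replicate number deviated together from their group means with LPS (r = 0.388 to 0.549, 6 of 6 pairs over 0.1). The main fit held no replicate term, and a replicate block was fitted only as an alternative. Between the cultures, libraries of the same number correlated at 0.0203 to 0.355 (12 of 16 pairs over 0.1), so a value over 0.1 does not by itself show pairing. With CD40L this was so for 4 of 6 pairs (-0.0588 to 0.340), and pairing was not shown. Alternatives were other normalizations, tools, filters, thresholds and sets of libraries, a replicate block, thinning to the smallest library and leaving out each library. Removal of Rn45s was added after seeing the data.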

Additional observations from a re-analysis of the deposited data

Results flagged for a closer look

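The effect of PU.1 loss differed between the cultures, by the test of the difference itself, for 382 genes with SpiB present and for 1577 genes in cells without SpiB. The values that follow are that difference on the log2 scale, LPS minus CD40L, for the 58 called genes that the naming rule gave.

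Higher values that stayed called whichever library was left out were Slpi 3.80, Abcb4 2.66, Serpinb9 2.64, Serpinb6b 2.59, Tnfsf14 2.47, Tnf 2.09, S1pr2 2.06, Egr2 1.64, S1pr3 1.60, Cd2 1.55, Fcer2a 1.40, Nfkbie 1.14 and Ctsb 1.06. Higher values that lost the call without at least 1 library were Rnf150 3.17, Ccr9 2.85, Lilrb4 2.60, Hyi 2.59, Epb4.1l4b 2.58, Ccl3 2.52, Rgs1 2.52, Havcr1 2.34, Bcl2a1d 2.33, Emr1 1.95, Cd68 1.63, Zap70 1.42, Oasl1 1.31, Thy1 1.03, Rasgrp3 0.98, Cd40 0.97, Bcl2 0.92, Cd69 0.91, Il27ra 0.87, Lamp2 0.73, Ptpn6 0.72 and Fam105b 0.65.

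Lower values that stayed called whichever library was left out were H2-Q10 -3.29, H2-Q1 -2.97, Rgcc -2.80, Tnfrsf8 -2.76, Tigit -2.71, Irf7 -2.67, Sdc1 -1.60, Bcl2l11 -1.48, Peli1 -1.42 and Prdm1 -1.38. Lower values that lost the call without at least 1 library were Ccr10 -3.54, Tg -2.88, H2-Bl -2.85, Gm11127 -2.67, Il10 -2.54, Rtp4 -2.39, Bmf -1.89, Usp18 -1.89, Bhlha15 -1.57, Derl3 -1.28, Cd24a -1.24, Batf -1.11 and Myc -1.02. Of these, H2-Bl (52 and 640 counts in PU.1 cKO with CD40L) and Ccr10 (26 and 220) had 1 and 2 counts in the control libraries with CD40L, so that their fitted values depend on the counts added in the fit. Counts in those control libraries were also low for H2-Q10 (5 and 8), H2-Q1 (7 and 10), Rgcc (6 and 5), Tigit (13 and 5) and Gm11127 (4 and 5). The sizes of their differences are uncertain for that reason.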

How the results depend on the processing

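The number of genes called for the difference (382) was 575 with DESeq2, 971 with no filter on low counts, 135 at an adjusted p under 0.05 and 235 with all libraries thinned to the smallest. With DESeq2 57.6% of the calls were higher, against 67.8%. Other normalizations, voom, a filter of 2 CPM, the deposited RPKM threshold, no fold threshold, other sets of libraries and removal of Rn45s gave 287 to 414. The number for PU.1 loss was 739 with LPS and 1397 with CD40L under the RPKM threshold, and 3597 with CD40L under no fold threshold. In cells without SpiB the contrast called 443 genes at an adjusted p under 0.05. Leaving out single libraries, where the lone library of a group is assumed to vary like the other groups, gave 103 to 367 for the difference, 739 to 943 with LPS, 1499 to 2320 with CD40L and 345 to 2684 without SpiB. The cause of these shifts was not tested, beyond the fewer libraries in the last of them. The median difference of the genes lower in naive PU.1 cKO (0.31) lay between 0.16 and 0.43.

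With a replicate block in LPS + IL-4 alone, where libraries of the same number deviated together, 414 genes were called for the difference. The other counts were 1162 with LPS, 2229 with CD40L and 1736 without SpiB, and the block changed no call of a named gene. A replicate block in each culture gave 865 for the difference, 1324 with LPS, 2352 with CD40L and 2274 without SpiB, and Spi1 then passed (adjusted p = 0.128).

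The 58 named calls kept their direction in the alternatives that follow; the count filters and removal of Rn45s were not run for single genes. All 58 were kept with the upper quartile, DESeq2 and both blocks, 57 with RLE, 55 with the 8 libraries alone, 53 with all 24, 48 with voom and 48 after thinning, and 29 to 48 without single libraries (29 without control replicate 2 with LPS). Xbp1 passed with voom (adjusted p = 0.1). Signs turned in differences that were not called. Bcl6 (0.01) was -0.0372 with RLE, -0.0935 with DESeq2, -0.0178 with the 8 libraries, -0.0006 with all 24, -0.11 with the block in each culture, -0.0233 after thinning and -0.58 to 0.45 without single libraries. Irf4 (0.04) was -0.0019 with RLE, -0.0017 with DESeq2, -0.0008 with all 24 and -0.11 to 0.21 without single libraries. Cebpb (0.01) was -0.0297 with RLE, -0.0321 with DESeq2, -0.0892 with voom, -0.0048 with the 8 libraries, -0.0290 with all 24 and -0.16 to 0.16 without single libraries. Ell2 was 0.0114 with the upper quartile, 0.005 after thinning and -0.24 to 0.17 without single libraries, and the ranges without single libraries were -0.30 to 0.0764 for Tlr4, -0.24 to 0.10 for Tnfrsf13c, -0.34 to 0.0788 for Tlr9 and -5.70 to 0.38 for Mybpc3. No scaling moved the median difference of all genes by more than 0.1. Depth was lowest with CD40L, where Il10, H2-Bl and Ccr10 had 1 or 2 counts in the control libraries.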
